A study of Mus musculus with 4 samples.

Results

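Immediate early genes are transcribed within minutes of a rise in neuronal activity, and 10 of them, of 55422 gene identifiers in the deposited matrices, are described here across the cell classes of the mouse hippocampus with and without Kat6a in forebrain excitatory neurons. The 10 genes were taken from a given list and found by their Ensembl identifiers: Fos, Fosb, Jun, Junb, Arc, Egr1, Egr3, Npas4, Nr4a1 and Homer1. Single-nucleus RNA sequencing (10x Chromium libraries) had been run on nuclei isolated on an iodixanol gradient from the hippocampus of adult mice. Control mice carried floxed Kat6a (Kat6a-f/f), and Kat6a-cKO mice carried the same floxed alleles together with NEX-cre, which expresses Cre recombinase in forebrain excitatory neurons. Both groups therefore share the floxed Kat6a alleles. NEX-cre was present in the knockout group alone, so the loss of Kat6a and the Cre allele itself cannot be told apart. Kat6a encodes a histone acetyltransferase, and the study's title asks about cognition and RSPO2/Wnt signalling in CA3. Each group had 2 libraries. The labels say neither how many mice went into a library nor at what age in weeks or under what handling they were taken. The p-values between genotypes therefore refer to these libraries and not to a known number of mice. The tests used below share variance between genes, so these p-values do not rest on a gene's own spread between libraries alone.

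The 4 libraries held 171323466 to 186897245 unique molecular identifiers (UMIs, each a counted RNA molecule), and 7911 to 8442 barcodes per library held at least 5000 UMIs. After removal of doublets, 7613 to 8144 nuclei per library remained, and they were clustered without the 10 genes and without the related gene lists used below. Clusters were named from marker genes, which gave 12 classes with at least 30 nuclei in every library; 1 of them, cluster 18, is called here by its leading gene Fn1. The rule named it subicular near-projecting from Tshz2, Fn1 and Nts, but the fourth marker of that class, Vwc2l, was at 3.68 CPM (UMIs per 1000000 of the summed UMIs) in it against 49.2 CPM in all other nuclei. Tshz2 and Vwc2l were both among the 10 leading genes of clusters 9 and 23, which the rule left unnamed. Pairs of libraries shared 15 to 20 barcodes of at least 5000 UMIs. UMIs of the Cre feature were 0 in every class of both Control libraries. In the Kat6a-cKO libraries they were 70 and 61 in CA1 (2.36 and 1.81 CPM), 39 and 56 in CA3 (2.21 and 2.86 CPM), 2 and 3 in the Fn1 cluster (0.833 and 1 CPM), 5 and 6 in dentate granule nuclei (0.145 and 0.19 CPM) and 0 and 2 in inhibitory neurons (0 and 0.264 CPM). Kat6a UMIs in CA1 pyramidal nuclei were at 63.8 and 70.0 CPM in Control against 63.9 and 65.0 in Kat6a-cKO, counted over the whole gene rather than the deleted exons, which does not check the deletion. Cytoplasmic RNA was lower in the knockout libraries: 9 abundant cytoplasmic messages summed to 984 and 1305 CPM in CA1 pyramidal nuclei of Control and to 720 and 816 in Kat6a-cKO.

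Immediate early genes need no new protein for their induction: calcium entry and growth factor signalling activate factors already bound at their promoters, among them CREB at cyclic AMP response elements and serum response factor at CArG boxes. Fos, Fosb, Jun and Junb encode subunits of the AP-1 transcription factor, Egr1 and Egr3 zinc finger factors, Npas4 a bHLH-PAS factor that responds to calcium in neurons, and Nr4a1 an orphan nuclear receptor. Arc and Homer1 act at synapses: Arc in the removal of AMPA receptors from the membrane, Homer1 as a scaffold of the postsynaptic density, with a short, activity-induced form (Homer1a) that competes with the long forms. In the hippocampus these genes are widely used to mark neurons that were recently active.

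RefSeq start-site windows on GRCm38.p6 were found for 7 of the 10 genes, and the 250 bases before the start are shown for 5, since these genes respond to shared signals and yet their values below differed between classes. Each is written 5′ to 3′ on the gene's strand, with TGACG (the core of the cyclic AMP response element, read on either strand, so also CGTCA) and the TATA box TATAAA in capitals. The Nr4a1 and Homer1 windows lie inside the annotated gene, upstream of an internal start. So does the window of Npas4, which is counted below but not shown, with all 250 bases in annotated exons of Npas4.
Fos, chr12:85473640-85473889 (+): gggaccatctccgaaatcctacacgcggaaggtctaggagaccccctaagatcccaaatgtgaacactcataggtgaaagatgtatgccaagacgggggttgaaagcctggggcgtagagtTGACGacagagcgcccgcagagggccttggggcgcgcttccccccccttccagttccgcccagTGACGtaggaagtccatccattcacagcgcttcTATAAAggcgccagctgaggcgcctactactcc
Jun, chr4:95052223-95052472 (-): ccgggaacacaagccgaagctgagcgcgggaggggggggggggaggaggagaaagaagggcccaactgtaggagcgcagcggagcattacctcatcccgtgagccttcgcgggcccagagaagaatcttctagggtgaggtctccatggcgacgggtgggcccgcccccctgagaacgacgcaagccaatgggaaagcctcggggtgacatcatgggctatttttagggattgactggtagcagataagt
Junb, chr8:84978749-84978998 (-): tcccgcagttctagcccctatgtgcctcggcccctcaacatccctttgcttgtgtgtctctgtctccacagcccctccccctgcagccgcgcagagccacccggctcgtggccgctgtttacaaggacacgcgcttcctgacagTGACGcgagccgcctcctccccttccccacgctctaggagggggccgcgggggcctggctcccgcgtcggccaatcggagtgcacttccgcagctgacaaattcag
Nr4a1, chr15:101266596-101266845 (+): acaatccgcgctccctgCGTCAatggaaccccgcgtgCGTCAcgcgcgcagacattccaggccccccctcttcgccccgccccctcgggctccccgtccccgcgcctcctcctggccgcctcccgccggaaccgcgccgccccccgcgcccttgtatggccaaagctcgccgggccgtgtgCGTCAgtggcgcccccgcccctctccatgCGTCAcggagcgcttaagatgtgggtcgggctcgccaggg
Homer1, chr13:93303507-93303756 (+): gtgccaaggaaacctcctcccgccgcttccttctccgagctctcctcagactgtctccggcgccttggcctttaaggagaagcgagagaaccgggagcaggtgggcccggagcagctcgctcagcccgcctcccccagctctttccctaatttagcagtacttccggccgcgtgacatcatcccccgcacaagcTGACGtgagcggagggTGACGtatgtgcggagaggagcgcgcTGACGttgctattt
TGACG stood 129 and 66 bases before the start of Fos and 106 before that of Junb. Nr4a1 held it 233, 213, 69 and 40 bases before the start, and Homer1 held it 56, 40 and 14 bases before the start. A match was present in 6 of the 7 genes with a window, Jun being the one without these letters, and in 6 of their 8 windows, since a second start of Homer1 had none either. Of 32851 RefSeq start windows of the same length, 17.8% held one. The full palindrome TGACGTCA, which contains TGACG, was in none of the 7 (1.55% of all windows), and the CArG box was in none either (1.47%). TATAAA stood 33 bases before the start of Fos and in no other of the 7 genes (12.4%). A match is a run of letters and not a measured binding site. Sites further upstream than 250 bases were not searched, and Arc, Egr1 and Egr3 had no window.

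In the mm10 (GRCm38) genome, with GENCODE M21 coordinates, Fos lies on chromosome 12 at 85473890 to 85477273 (plus strand) and Fosb on chromosome 7 at 19302696 to 19310051 (minus). Jun lies on chromosome 4 at 95049034 to 95052222 (minus) and Junb on chromosome 8 at 84974484 to 84978718 (minus). Arc lies on chromosome 15 at 74669083 to 74672570 (minus), and Nr4a1 is on the same chromosome at 101254269 to 101274795 (plus). Egr1 lies on chromosome 18 at 34859823 to 34864984 (plus) and Egr3 on chromosome 14 at 70077203 to 70082614 (plus). Npas4 lies on chromosome 19 at 4984355 to 4990316 (minus), and Homer1 on chromosome 13 at 93299635 to 93405129 (plus). Junos overlaps Jun and Prdx2 overlaps Junb on the opposite strand. Since the counting strand is not given in the sources used here, values of Jun and Junb could include reads of those neighbours. Gm47075 and Gm47088 overlap Homer1 on its own strand, and Homer1 counts cover the whole gene, so Homer1a and the long forms could not be told apart.

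The 10 genes did not share a single order of classes, and the levels below are CPM of each class's summed UMIs, as the mean ± SD of all 4 libraries. Nr4a1 was highest in the Fn1 cluster, at 68.2 ± 8.13 CPM. Its range there, 56.7 to 74.6 CPM, lay above that of the next class, CA2 pyramidal nuclei. CA2 (30.5 ± 2.45 CPM), deep-layer (28.9 ± 2.69 CPM) and CA1 nuclei (23.1 ± 3.79 CPM) followed, each overlapping the next. Further down the order, Nr4a1 was at 9.06 ± 1.28 CPM in CA3 and at 2.10 ± 0.205 CPM in dentate granule nuclei. By mean, Npas4 fell into a higher and a lower set of classes. The higher set ran from deep-layer excitatory neurons (8.50 ± 4.11 CPM) through CA2, CA1 and mossy cells to the Fn1 cluster (5.70 ± 1.96 CPM). The 4-library range of the Fn1 cluster lay above that of CA3 (mean 1.86 CPM). Deep-layer neurons reached down to 2.36 CPM, below the CA3 maximum of 2.45 CPM, so the sets overlapped. Dentate granule nuclei had 0.688 ± 0.317 CPM of Npas4, and astrocytes 0.319 CPM.

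Arc, the synaptic effector, was highest in the Fn1 cluster (16 ± 7.51 CPM), in deep-layer neurons (14.4 ± 6.58 CPM) and in CA1 nuclei (14 CPM), whose ranges overlapped. Arc was at 5.45 CPM in CA3 and at 1.18 CPM in dentate granule nuclei. Homer1, the scaffold, was at 444 CPM in CA2, 420 in the Fn1 cluster, 399 in mossy, 394 in CA1 and 345 in deep-layer nuclei, with overlapping ranges. CA3 followed at 259 ± 12.8 CPM, apart from the classes on both sides, and dentate granule nuclei had 127 CPM. Jun had a different order: it was highest in astrocytes (38.3 ± 19.6 CPM) and dentate granule nuclei (30.1 ± 6.64 CPM) and lowest in CA2 (4.88 CPM) and the Fn1 cluster (4.09 CPM). Egr3 was at 16.3 ± 1.91 CPM in immature dentate neurons, 13.1 CPM in dentate granule nuclei and 3.52 CPM in inhibitory neurons. Neighbouring classes in the order of Fos, Fosb, Jun, Junb, Arc, Egr1 and Egr3 had overlapping ranges throughout.

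**Figure D1:**
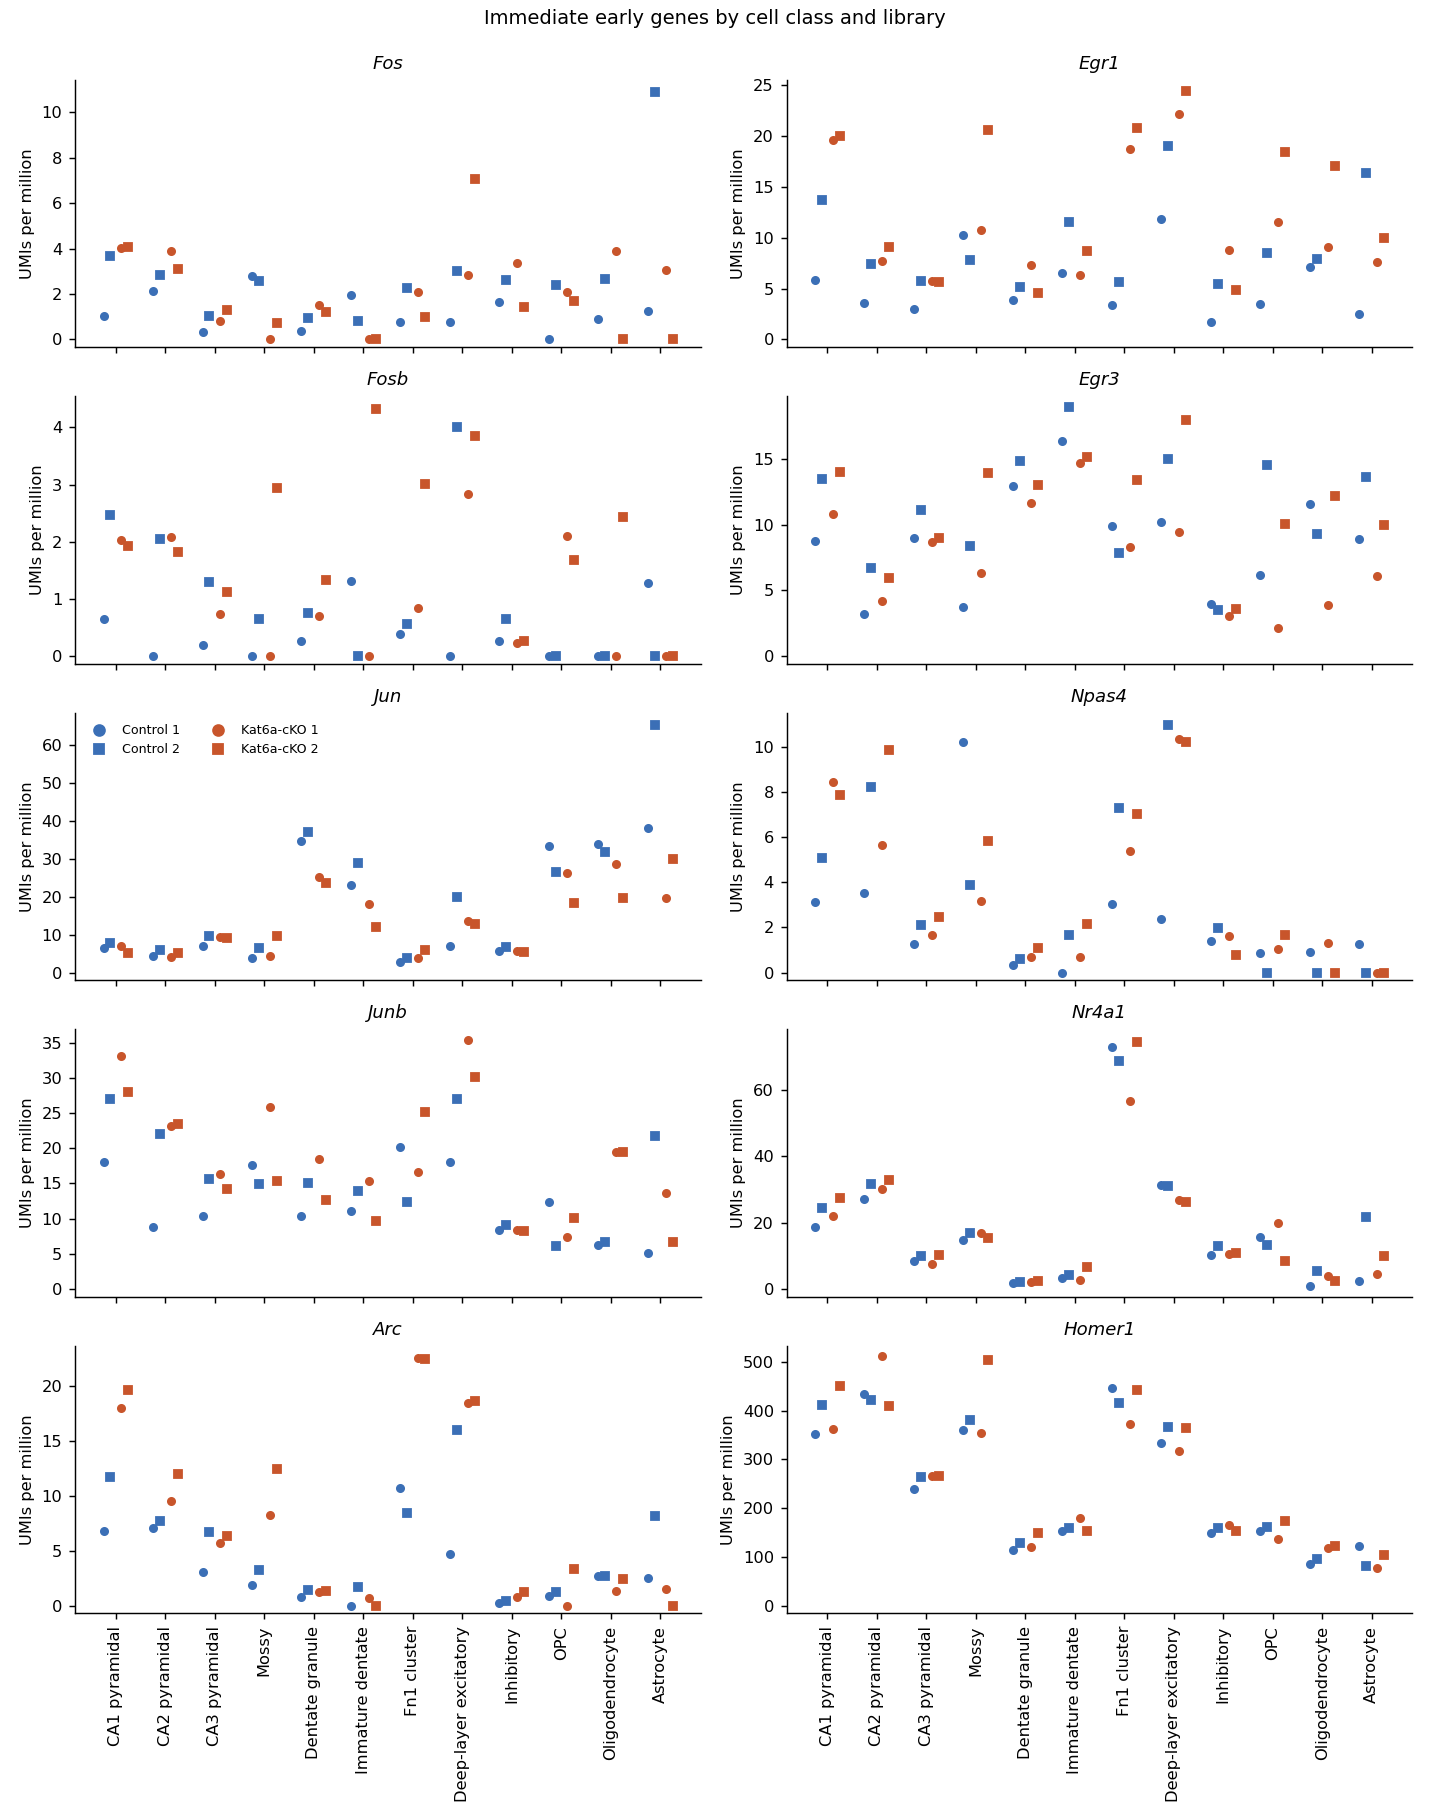
CPM (UMIs per 1000000 of the class sum, linear axes from 0) of each of the 10 genes in 12 cell classes, with 1 point per library, blue for Control and orange for Kat6a-cKO, circles for replicate 1 and squares for replicate 2. Jun is high in astrocytes and dentate granule nuclei and low in CA1, while Npas4, Arc and Nr4a1 are low in dentate granule nuclei.

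These levels include RNA free in the suspension: empty droplets of the same library would give 23.7% to 33% of the Egr1 UMIs of Control CA1 nuclei and 8.99% to 12.3% of those of Kat6a-cKO. Barcodes of 100 to 900 UMIs served as empty droplets. The estimate for CA1 was 2.28% to 5.54% for Arc and 1.80% to 5.32% for Npas4 over the 4 libraries, but 46.7% to 70.8% for Jun. Over all genes, free RNA was estimated at 6.51% to 8.79% of astrocyte UMIs and at 3.28% to 4.49% of dentate granule UMIs. The rank of astrocytes for Jun was taken without subtracting it. In dentate granule nuclei, free RNA would give 20.0% to 22.1% of the Jun UMIs. For Fos there, the estimate ran from 35.3% to 138.7% of the UMIs counted, so the lowest Fos levels of dentate granule nuclei are not above what free RNA would give.

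Kat6a-cKO was compared with Control in each class by edgeR's quasi-likelihood test on UMIs summed per library, with Benjamini-Hochberg adjustment over all genes tested and a threshold of 0.05. Of 120 pairs of gene and class, 82 had enough counts to be tested. Of these, 3 passed: Arc and Egr1 rose in the Fn1 cluster and Jun fell in dentate granule nuclei. The share of all genes called was 1.21% in the Fn1 cluster, 0.387% in dentate granule nuclei, 0.0118% in CA1 and 0.013% in CA3. In the smaller classes it was 0.623% in mossy cells, 0.582% in deep-layer neurons, 0.125% in immature dentate neurons, 0.054% in CA2 and 0.0344% in oligodendrocyte precursors (OPCs). No gene of any kind was called by edgeR in inhibitory neurons (0%), astrocytes (0%) or oligodendrocytes (0%), where 870, 345 and 426 genes had an unadjusted p under 0.05 and DESeq2 called 7, 0 and 0. In the 9 classes without a called member other than CA1, DESeq2 called none of the 10 genes either.

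**Figure D2:**
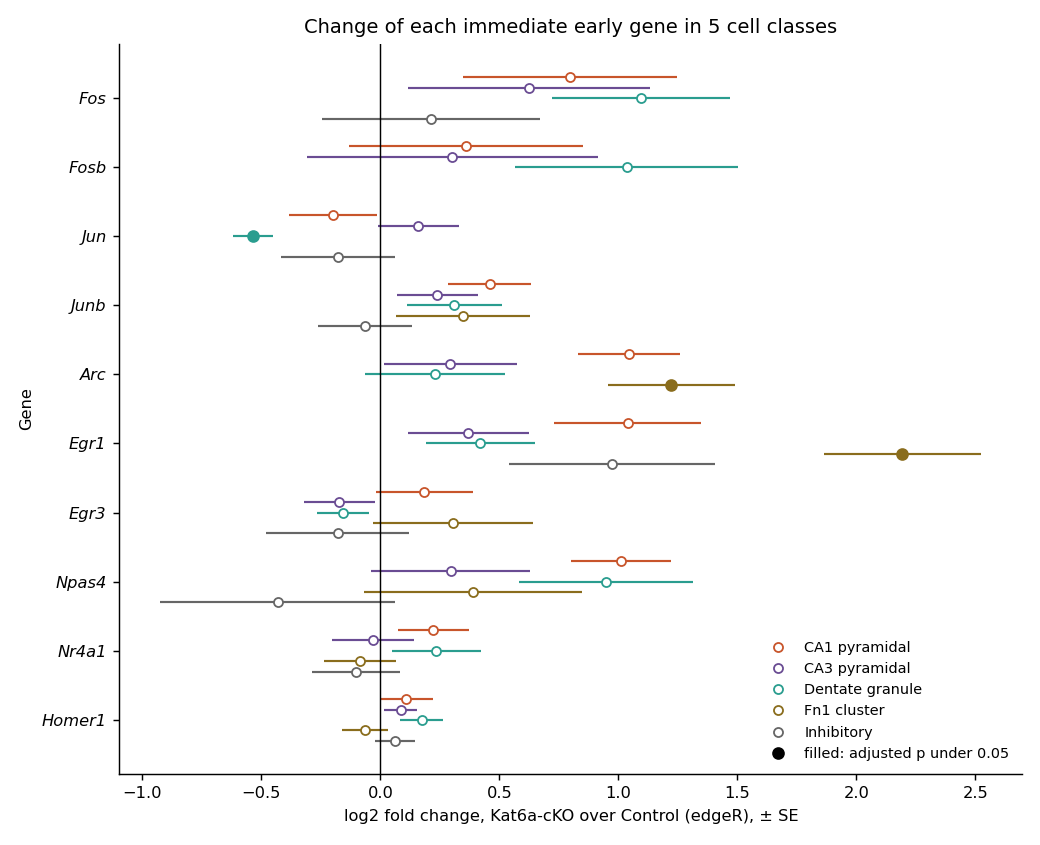
Change of each gene between genotypes (log2 fold change, Kat6a-cKO over Control, edgeR, bars show ± 1 SE) in CA1, CA3, dentate granule, inhibitory nuclei and the Fn1 cluster, with filled points past an adjusted p of 0.05. Arc and Egr1 in the Fn1 cluster and Jun in dentate granule nuclei are filled.

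CA1 pyramidal nuclei, the output neurons of the hippocampus, had more CPM of Arc, Npas4, Egr1, Fos and Junb in both Kat6a-cKO libraries than in either Control library, although none of the 10 genes passed the edgeR test after adjustment. Arc was at 6.75 and 11.7 CPM in Control (210 and 400 UMIs) against 18.0 and 19.6 CPM in Kat6a-cKO (534 and 659 UMIs). The groups did not overlap, and the log2 fold change was 1.04 ± 0.22 (SE; unadjusted p = 0.00164, adjusted p = 0.284). Npas4 was at 3.15 and 5.07 CPM in Control against 8.46 and 7.91 CPM in Kat6a-cKO (log2 fold change 1.01 ± 0.21, unadjusted p = 0.00174, adjusted p = 0.284 by edgeR). Egr1, whose product activates genes of synaptic plasticity, was at 5.82 and 13.7 CPM in Control against 19.6 and 20.0 CPM in Kat6a-cKO (1.04 ± 0.31, adjusted p = 0.444 by edgeR). In Arc, Npas4 and Egr1 alike, Control replicate 1 was the lowest library and the Kat6a-cKO libraries lay close together.

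Fos in CA1 was at 1.03 and 3.66 CPM in Control against 4.01 and 4.07 CPM in Kat6a-cKO, so that Control replicate 2 lay just below the knockout libraries (log2 fold change 0.80 ± 0.45, adjusted p = 0.703 by edgeR). Junb was at 18.1 and 27.0 CPM against 33.2 and 27.9 CPM (0.46 ± 0.18, adjusted p = 0.574). Fosb (0.36 ± 0.49), Egr3 (0.18 ± 0.20), Nr4a1 (0.22 ± 0.15) and Homer1 (0.11 ± 0.11) overlapped between the groups, and so did Jun (-0.20 ± 0.19). In all, 9 of the 10 genes had a log2 fold change above 0 in CA1, with a median of 0.41 beside 0.00 over all 16995 genes tested. Without Control replicate 1 that median was 0.13, with 7 of the 10 above 0, and without Control replicate 2 it was 1.05, with 9 above 0. For 5 of the 10 both Kat6a-cKO libraries lay above both Control libraries and for none below, where 15.3% of all genes lay wholly above and 21.8% wholly below.

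Whether the CA1 differences were called depended on the test. At an unadjusted p under 0.05, edgeR gave 4 of the 10 (Junb, Arc, Egr1 and Npas4) and 8.01% of all genes. DESeq2 called Arc (log2 fold change 1.05, adjusted p = 5.15e-04) and Npas4 (1.02, adjusted p = 0.0151), where it called 0.706% of all genes. With no filter on low counts, edgeR called Fos (adjusted p = 0.0169), Junb (0.0132), Arc (1.72e-10), Egr1 (1.13e-10) and Npas4 (4.55e-06), where it called 1.9% of all genes. Without Control replicate 1, edgeR called none of the 10, and the log2 fold changes were 0.19 for Fos, 0.73 for Arc, 0.57 for Egr1 and 0.74 for Npas4. Without Control replicate 2, it called Fos (1.95), Arc (1.46), Egr1 (1.75) and Npas4 (1.36, log2 fold changes), where it called 0.17% of all genes. Leaving out Kat6a-cKO replicate 1 gave Arc, Egr1 and Npas4 (1.15% of all genes), and leaving out Kat6a-cKO replicate 2 gave these and Junb (2.91% of all genes). In these fits the lone library of a group is assumed to vary like the libraries of the other group.

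Values of other kinds differed between the genotypes in the same CA1 nuclei. The 9 cytoplasmic messages were lower in both Kat6a-cKO libraries, and mitochondrial RNA was at 0.0667% and 0.0772% in Control against 0.0642% and 0.0506% in Kat6a-cKO. The summed oligodendrocyte markers were at 94.7 and 88.3 CPM in Control against 83.0 and 74.9 in Kat6a-cKO, the microglial markers at 111 and 138 against 102 and 104. The choroid plexus markers were at 39.1 and 41.8 CPM against 24.7 and 27.1, and free RNA was estimated at 2.63% and 3.06% of CA1 UMIs in Control against 2.32% and 2.18% in Kat6a-cKO. Astrocyte markers were higher in Kat6a-cKO, at 92.0 and 87.5 CPM in Control against 103 and 99.4, and inhibitory markers overlapped, at 24.9 and 32.0 against 31.5 and 23.6. Endothelial markers were at 7.45 and 10.2 CPM against 12.1 and 10.6, mural and fibroblast markers at 8.61 and 9.18 against 21.2 and 9.54. Dentate granule markers were lower in Kat6a-cKO, at 400.5 and 400.4 CPM against 385.9 and 352.1. Markers of immature dentate, mossy and Cajal-Retzius cells lay higher in both Kat6a-cKO libraries. The part of these in the differences of Arc, Npas4 and Egr1 was not tested.

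The Fn1 cluster, of 77 to 142 nuclei per library, was the class in which Egr1 and Arc passed the threshold. Fn1, the gene of the matrix protein fibronectin, was at 247 CPM in it against 1.96 CPM in all other nuclei, and Rxfp1, a marker of the deep-layer list, was also among its 10 leading genes. Egr1 was at 3.42 and 5.62 CPM in Control (9 and 10 UMIs) against 18.8 and 20.8 CPM in Kat6a-cKO (45 and 62 UMIs), with no overlap. Its log2 fold change was 2.19 ± 0.33 (adjusted p = 0.00233, edgeR's quasi-likelihood test), and it passed under all 7 alternatives run for it, with adjusted p from 5.91e-08 to 0.0321. Arc was at 10.7 and 8.44 CPM in Control (28 and 15 UMIs) against 22.5 and 22.4 CPM in Kat6a-cKO (54 and 67 UMIs). Its log2 fold change was 1.22 ± 0.27 (adjusted p = 0.0337, edgeR). The Arc call was lost with DESeq2 (adjusted p = 0.323), with empty-droplet RNA subtracted (0.0537), without Control replicate 1 (0.0769) and without Control replicate 2 (0.115). Its log2 fold change was 1.24, 1.26, 1.45 and 1.07 under these settings, in that order.

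No other member passed the test in these nuclei or had an unadjusted p under 0.05, as 9.79% of all genes did. Nr4a1 was at 73.1 and 68.6 CPM in Control against 56.7 and 74.6 in Kat6a-cKO, Npas4 at 3.04 and 7.31 against 5.42 and 7.03, and Homer1 at 447 and 416 against 373 and 442. Junb (0.35) and Egr3 (0.30) were above 0 on the log2 scale and overlapped between the groups. Its 4 markers summed to 1726 and 1661 CPM in Control against 1216 and 1193 CPM in Kat6a-cKO, and its nuclei numbered 100 and 77 against 122 and 142. The 9 cytoplasmic messages summed to 787 and 922 CPM in the Fn1 cluster of Control against 620 and 659 in Kat6a-cKO, and median UMIs per nucleus were 24647 and 22294 against 18957 and 20356. Choroid plexus markers were at 54.8 and 65.2 CPM against 35.4 and 40.8, and endothelial markers at 11 and 10.7 against 16.2 and 20.8. Whether any of these or the makeup of the class has a part in the Arc and Egr1 values was not tested.

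Dentate granule nuclei, which gate the input to CA3 and fire sparsely, had less Jun in Kat6a-cKO, the 1 member called there. Jun was at 34.6 and 37.0 CPM in Control (1491 and 1422 UMIs) against 25.2 and 23.7 CPM in Kat6a-cKO (868 and 747 UMIs). The log2 fold change was -0.53 ± 0.09 (adjusted p = 0.0384, edgeR's quasi-likelihood test). The call was lost without Control replicate 2 (-0.51, adjusted p = 0.0582) and with empty-droplet RNA subtracted (-0.56, adjusted p = 0.312), where the size held. Free RNA would give about the same share of Jun in both groups, and Jun in the empty droplets themselves was at 175 and 177 CPM in Control against 143 and 160 CPM in Kat6a-cKO. In the same nuclei 5 of 40 tested cytoplasmic and mitochondrial messages fell, led by Rplp1 (-0.63 ± 0.07, adjusted p = 0.0163) and Rps29 (-0.72 ± 0.11, adjusted p = 0.0304). Of the 63 genes called lower in these nuclei (0.364% of those tested), 42 (66.7%) had symbols of ribosomal proteins or of nuclear-encoded respiratory chain and ATP synthase subunits, such as Rps21, Rpl37, Cox5b and Uqcr11, a grouping made after seeing the calls. Such symbols made up 1.04% of the 17303 genes tested. The part of these in the Jun value was not tested.

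Fos in dentate granule nuclei was at 0.371 and 0.936 CPM in Control (16 and 36 UMIs) against 1.51 and 1.21 CPM in Kat6a-cKO (52 and 38 UMIs), a log2 fold change of 1.10 ± 0.37 (adjusted p = 0.338 by edgeR). Npas4 was at 0.348 and 0.598 CPM in Control against 0.697 and 1.11 CPM in Kat6a-cKO (0.95 ± 0.36, adjusted p = 0.415). By CPM the groups did not overlap for these genes, on 15 to 52 UMIs per library, or for Nr4a1. With each nucleus thinned to 5000 UMIs, the shares of dentate granule nuclei with a UMI overlapped for Fos, at 0.147% and 0.412% in Control against 0.642% and 0.261% in Kat6a-cKO, and for Npas4, at 0.059% and 0.285% against 0.27% and 0.372%. For Nr4a1 they ran opposite to the CPM, at 0.914% and 1.05% against 0.811% and 0.819%. By CPM, those lying wholly above were 3 of the 10 genes and wholly below 1 (Jun), where 17.1% of all genes lay wholly above and 21.9% wholly below. Arc was at 0.789 and 1.40 CPM in Control against 1.19 and 1.33 in Kat6a-cKO, and Homer1 at 113 and 128 against 121 and 148, both overlapping. Fosb (1.03 ± 0.47), Egr1 (0.42 ± 0.23), Junb (0.31 ± 0.20) and Egr3 (-0.16 ± 0.11) did not pass the test. At an unadjusted p under 0.05 edgeR gave 3 of the 10 (Fos, Jun and Npas4) and 9.87% of all genes.

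CA3 pyramidal nuclei, the class named in the study's title, had no member past the threshold, none at an unadjusted p under 0.05 by edgeR (7.76% of all genes) and none by DESeq2. Arc was at 3.08 and 6.73 CPM in Control against 5.67 and 6.32 CPM in Kat6a-cKO (log2 fold change 0.29 ± 0.28, adjusted p = 0.882). Egr1 was at 3.02 and 5.77 CPM against 5.73 and 5.61, and Npas4 at 1.26 and 2.09 against 1.65 and 2.45. Control replicate 1 was again the lowest library. Control replicate 2 lay above both knockout libraries for Arc and Egr1 and between them for Npas4. Fos (0.62 ± 0.51), Fosb (0.30 ± 0.61), Junb (0.24 ± 0.17), Jun (0.16 ± 0.17), Nr4a1 (-0.03 ± 0.17) and Egr3 (-0.17 ± 0.15) overlapped as well. Homer1, at 239 and 264 CPM in Control against 265 and 266 CPM in Kat6a-cKO, was the 1 gene of the 10 whose groups did not overlap (0.09 ± 0.07), where 16.2% of all genes lay wholly above and 20% wholly below. Without Control replicate 2, Arc passed the test in CA3 (0.93, adjusted p = 0.0437), where edgeR called 1.88% of all genes.

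Inhibitory neurons, in which NEX-cre is not known to be active, had 8 of the genes tested and none called, with 1 (Egr1) at an unadjusted p under 0.05 by edgeR (6.28% of all genes) and none by DESeq2. Cluster 11, of 616 nuclei with Sst among its leading genes and 6 of 6 inhibitory markers raised, was left unnamed by the rule and is not in this class. Egr1 was at 1.67 and 5.49 CPM in Control against 8.82 and 4.88 CPM in Kat6a-cKO (log2 fold change 0.97 ± 0.43, adjusted p = 0.783). Free RNA would give 22.3% to 124.6% of those Egr1 UMIs. Npas4 was at 1.41 and 1.96 CPM against 1.62 and 0.792 CPM (-0.43 ± 0.49) and Fos at 1.67 and 2.61 against 3.37 and 1.45 (0.21 ± 0.46). Jun, at 5.77 and 6.79 CPM against 5.69 and 5.28, lay wholly below in Kat6a-cKO, as did 20.4% of all genes, and none of the 8 lay wholly above, as did 15% of all genes. Arc had 2 and 3 UMIs in Control against 7 and 9 in Kat6a-cKO and was too low to test.

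In the remaining classes no member passed edgeR or DESeq2, and at an unadjusted p under 0.05 edgeR gave 2 of 8 tested in deep-layer neurons (Junb and Arc), 1 of 6 in mossy cells (Arc), 1 of 4 in OPCs (Egr1), 1 of 3 in oligodendrocytes (Junb) and 1 of 2 in astrocytes (Jun), and 0 in CA2 and immature dentate neurons. The shares of all genes at that threshold were 9.73%, 8.45%, 7.49%, 5.58%, 4.98%, 7.23% and 9.99% in these 7 classes in the same order. Mossy cells of the hilus had 2 and 5 Arc UMIs in Control against 13 and 17 in Kat6a-cKO (log2 fold change 1.94 ± 0.58, adjusted p = 0.233 by edgeR). Arc in mossy cells, Egr1 in OPCs and Junb in oligodendrocytes had enough counts for a test in the Kat6a-cKO libraries alone. Their entry therefore favoured a log2 fold change above 0. Deep-layer neurons had Arc at 4.72 and 16 CPM in Control against 18.4 and 18.6 in Kat6a-cKO (0.95 ± 0.43, adjusted p = 0.498), and Nr4a1 at 31.5 and 31.0 against 26.9 and 26.3 (-0.19 ± 0.24). Without Control replicate 2, Egr1 in inhibitory neurons (2.05, adjusted p = 0.0119), Junb in CA2 (1.40, adjusted p = 0.00588) and Arc in deep-layer neurons (1.97, adjusted p = 0.0264) passed edgeR, which then called 0.566%, 0.913% and 1.84% of all genes in these classes. With all libraries Arc, Egr1 and Junb in CA2 had log2 fold changes of 0.55 ± 0.28, 0.57 ± 0.36 and 0.54 ± 0.30. Glia had few UMIs of these genes: Junb in oligodendrocytes rested on 7 and 5 UMIs against 15 and 8, below or near what free RNA would give in Control (104% and 148%).

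Over the classes in which each was tested, Arc (7 classes, 0.23 to 1.94), Fos (5 classes, 0.21 to 1.10) and Fosb (3 classes, 0.30 to 1.03) had log2 fold changes above 0 in every one with all libraries. The 1.94 of Arc came from mossy cells, where it had enough counts for a test in the Kat6a-cKO libraries alone. Arc in CA3 (-0.12) and dentate granule nuclei (-0.12), Fosb in CA1 (-0.27) and CA3 (-0.43) and Fos in inhibitory neurons (-0.06) turned below 0 without Control replicate 1. So did Fos in inhibitory neurons (-0.56) without Kat6a-cKO replicate 1, Fosb in CA3 (-0.02) without Kat6a-cKO replicate 2 and Arc in dentate granule nuclei (-0.29) both at a minimum of 2000 UMIs and with cluster 33 joined. Egr1 was above 0 in 9 of 10 classes and Junb in 9 of 10. Among these, Egr1 in OPCs and Junb in oligodendrocytes entered the test through the Kat6a-cKO libraries alone. Jun was above 0 in 2 of 10, with a range of -1.05 to 0.16. Nr4a1 was above 0 in 5 of 9 and stayed between -0.19 and 0.23. Homer1 was tested in all 12 and lay between -0.28 and 0.43. The classes share their libraries, so these counts are not independent of each other.

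The log2 fold change of each gene was then compared between classes through the interaction of class and genotype, with the library as a block. None of the 40 member tests passed with edgeR, and 8 had an unadjusted p under 0.05: 4 for dentate granule against CA1 (6.69% of all genes), 1 for dentate granule against CA3 (5.38%) and 3 for CA1 against CA3 (5.65%). The log2 fold change of Arc was lower in dentate granule than in CA1 nuclei (difference -0.85 ± 0.20, adjusted p = 0.320) and higher in CA1 than in CA3 (0.74 ± 0.17, adjusted p = 0.334). For Egr1 the difference between CA1 and CA3 was 0.67 ± 0.17 (adjusted p = 0.491). For Jun the difference between dentate granule and CA3 nuclei was -0.68 ± 0.15 (adjusted p = 0.141). The share of all genes called was 0.0331% for dentate granule against CA1, 0.0742% for dentate granule against CA3, 0.0174% for CA1 against CA3 and 0% for dentate granule against inhibitory neurons, where 752 genes (4.3%) and 0 members had an unadjusted p under 0.05. DESeq2 was not run on these differences. With no filter on low counts, 2 members passed for dentate granule against CA1, where 279 of 30693 genes tested were called. For dentate granule against CA3, 1 member passed, where 85 of 30121 genes were called.

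Genes around these 10 were followed in 5 lists. Among other immediate early genes (26 listed), 21 were tested in CA1 and none passed, with a median log2 fold change of 0.27. The smallest p there belonged to Dusp6, a phosphatase of ERK (0.62 ± 0.15, adjusted p = 0.327), and Arl4d (0.81 ± 0.34, adjusted p = 0.61). Over 12 classes none of the 150 tests on this list passed with edgeR (16 had an unadjusted p under 0.05, as did 8.08% of the tests on all genes) or DESeq2, with class medians from -0.38 to 0.36, where the medians of all genes lay between -0.005 and 0.007. Later activity-regulated genes such as Bdnf and Nptx2 gave none of 143 by either tool (18 at an unadjusted p under 0.05, medians -0.45 to 0.21), with Nrn1 (-0.21 ± 0.09, adjusted p = 0.631) and Vgf (-0.46 ± 0.24, adjusted p = 0.684) of smallest p in CA1. In the Fn1 cluster the later gene Sorcs3, a sorting receptor, came nearest (1.40 ± 0.34, adjusted p = 0.063).

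Signalling and transcription factors that act upstream, among them Creb1, Srf, Mef2c and NMDA receptor subunits, gave none of 320 tests past the threshold with edgeR (20 at an unadjusted p under 0.05) or DESeq2. Their class medians lay between -0.15 and 0.11. Of 137 tests on partners of the 10 genes, 1 passed, and 17 had an unadjusted p under 0.05. Homer2, a scaffold related to Homer1, rose in deep-layer neurons (1.21 ± 0.23, adjusted p = 0.0331 by edgeR, where 0.582% of all genes were called), while DESeq2 called none on this list. Of 326 tests on cytoplasmic and mitochondrial messages, 15 fell and 0 rose, where 0.121% of the tests on all genes fell. At an unadjusted p under 0.05 there were 135 of the 326, and DESeq2 called 24. The class medians ran from -0.66 to -0.17. In CA1 none of 40 on that list passed, with Rpl34 (-1.19 ± 0.12, adjusted p = 0.0515) and Rplp1 (-0.62 ± 0.08, adjusted p = 0.116) of smallest p.

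To see how the UMIs were spread over nuclei, each nucleus was thinned at random to 5000 UMIs, the minimum for a nucleus here, so that shares compare equal depths and none was left out. Arc was found in 4.18% ± 1.1 of CA1 nuclei of Control and in 8.02% ± 0.047 in Kat6a-cKO (SD, n = 2 libraries each). Npas4 was found in 1.41% ± 0.31 against 3.56% ± 0.36, and Egr1 in 3.97% ± 2.7 against 7.93%. Junb overlapped between the groups in these shares, at 8.68% and 10.9% of CA1 nuclei in Control against 12.8% and 9.82% in Kat6a-cKO. Nr4a1 was found in 8.37% and 12.3% against 9.96% and 11.2%, Egr3 in 4.18% and 6.72% against 5.01% and 6.99%, and Fosb in 0.25% and 1.05% against 0.596% and 0.84%, also overlapping. In oligodendrocytes, which should lack induced Arc and Npas4, the shares at the same depth were 1.12% and 0.848% for Arc and 0.307% and 0.472% for Npas4. Those of Egr1 were 3.58% and 7.07%, where free RNA was estimated at 5.54% to 7.45% of the UMIs of oligodendrocytes and 2.18% to 3.06% of those of CA1 nuclei. Homer1 was found in 72.9% and 75.7% of CA1 nuclei, against 34.6% and 40.6% of oligodendrocytes. Jun was found in 15.4% ± 0.62 of dentate granule nuclei in Control and 10.7% ± 0.35 in Kat6a-cKO, but also in 15.9% and 10.4% of oligodendrocytes. Before thinning, the Jun shares in dentate granule nuclei were 33.1% ± 0.884 and 22.9% ± 0.797, at a median of 12013 UMIs per nucleus in Control replicate 1. With 2 libraries against 2, the exact permutation test cannot give a p below 0.33, so these shares are a description.

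To count nuclei that held several of these genes at once, nuclei with UMIs of 2 or more of 7 inducible genes (Fos, Fosb, Junb, Arc, Egr3, Npas4 and Nr4a1) were taken at the same depth. In CA1 they were 48 of 1601 nuclei in Control replicate 1 (3%, 95% Wilson interval 2.27% to 3.95%) and 125 of 1905 in Control replicate 2 (6.56%, 5.54% to 7.76%). Kat6a-cKO had 152 of 1677 (9.06%, 7.78% to 10.5%) and 159 of 1904 (8.35%, 7.19% to 9.68%). The groups did not overlap, at 4.78% ± 2.52 and 8.71% ± 0.504, and the intervals cover counting error only. The 2 Control libraries differed from each other by more than Control replicate 2 did from the knockout libraries. In deep-layer neurons the groups did not overlap either, at 2.06% and 7.9% in Control against 9.46% and 9.48% in Kat6a-cKO. The Fn1 cluster had 8% and 10.4% against 9.02% and 11.3%, overlapping. The means of Control and of Kat6a-cKO were 1.87% and 2.61% in CA3, 0.942% and 1.16% in inhibitory neurons, 0.897% and 0.666% in dentate granule nuclei, and 0.307% and 1.79% in oligodendrocytes. The mean was higher in Kat6a-cKO in CA2, and lower in mossy cells, immature dentate neurons, astrocytes and OPCs. Without thinning, the CA1 shares were 19.5% and 24.6% in Control against 25.5% and 28.0% in Kat6a-cKO. Without thinning the order of the means turned in CA3, at 17.9% and 15%, in inhibitory neurons, at 7.66% and 6.17%, and in OPCs, at 0.284% and 0.87%. Deep-layer neurons then had means of 18.4% in Control and 19.5% in Kat6a-cKO. With 3 or more of the 7 genes at equal depth it turned in dentate granule nuclei, at 0.0793% in Control and 0.161% in Kat6a-cKO, and in inhibitory neurons, at 0.235% and 0.184%.

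The 5 CA1 clusters were not alike in this measure. Cluster 5 had 5.65% and 14.2% of nuclei with 2 or more in Control against 14.1% and 12% in Kat6a-cKO, overlapping. Clusters 4 (1.37% and 4.65% against 9.68% and 8.47%) and 7 (0.541% and 1.68% against 5.65% and 5.51%) had separate groups, and so did cluster 6 (2.59% and 2.58% against 4.61% and 3.20%). In cluster 12 the shares overlapped, at 5.26% and 8.27% against 8.30% and 8.09%. These are single shares per library, with no test.

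**Figure D3:**
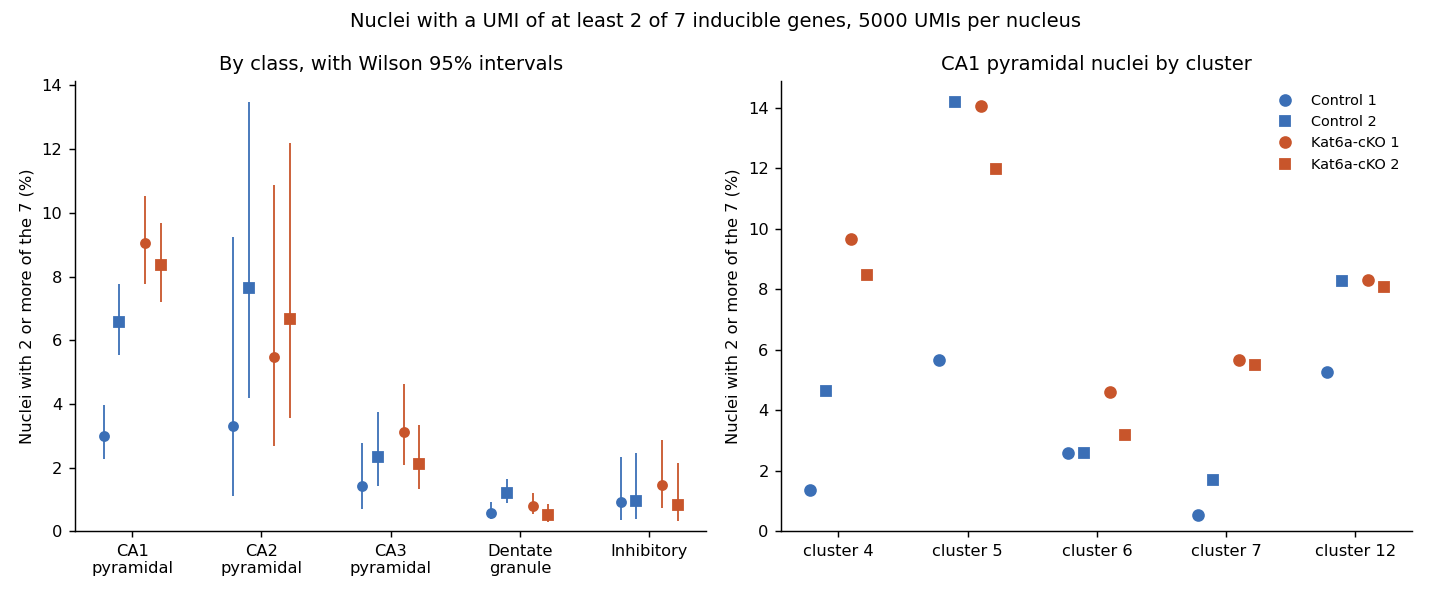
Percent of nuclei with UMIs of 2 or more of the 7 inducible genes at 5000 UMIs per nucleus, with 1 point per library, by class with 95% Wilson intervals (left) and by CA1 cluster (right). In CA1 the Control libraries are at 3% and 6.56% and the Kat6a-cKO libraries at 9.06% and 8.35%.

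The genes were found together in CA1 nuclei more often than the product of their shares within each library would give, as a description over the thinned nuclei of all 5 CA1 clusters. Arc and Npas4 shared 49 nuclei where the product gave 12.4, Egr1 and Npas4 47 where it gave 12.3, and Arc and Egr1 92 where it gave 29.5. All 3 pairs were above 1 in 4 of 4 libraries. Fos and Junb shared 36 nuclei against 8.84. Jun and Homer1 met in 175 nuclei against 175.8, and Jun and Arc in 16 against 14.1. Homer1 with each of the 8 others gave ratios of 1.04 to 1.27. Homer1 alone was found in 72.0% to 76.9% of CA1 nuclei per library, so its ratios cannot lie far above 1. They cannot be set beside those of the rarer genes. Jun and its AP-1 partner Junb met in 33 nuclei against 25.0.

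CA1 nuclei with 2 or more of the 7 inducible genes were then compared with those having none, in the same library. The clusters took unequal parts in this choice: cluster 5 held 29.1% of the 7087 CA1 nuclei and 239 of the 484 with 2 or more (49.4%). The 7 genes chose the nuclei and are not results, while Egr1, Homer1 and Jun did not take part in the choice. Egr1 was higher in the nuclei with 2 or more, at 52.3 ± 29.1 CPM against 8.16 ± 3.35 (SD, n = 4 libraries), a log2 fold change of 2.73 ± 0.20 (SE, adjusted p = 2.62e-41, edgeR with the library as a block). Homer1 was at 1038 ± 319 CPM against 313 ± 27.6 (1.71 ± 0.07, adjusted p = 1.22e-146 by edgeR). By library it was at 1171 against 283 and 1379 against 327 in Control, and at 630 against 299 and 971 against 345 in Kat6a-cKO. Because edgeR shares variance between genes, these SEs and p-values do not measure the spread of a gene's change over the 4 libraries. Egr1 and Homer1 were both higher in 4 of 4 libraries. Jun was at 13.6 ± 5.33 CPM against 6.51 ± 0.975, higher in 4 of 4 libraries, but did not pass (1.00 ± 0.34, adjusted p = 0.0629). Of 11805 genes tested, 5.24% were called in all and 4.11% were called higher. Median UMIs of the 2 kinds of nuclei were alike, at 19220 and 18561 in Control replicate 1 and 16540 and 16855 in Kat6a-cKO replicate 1.

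Other immediate early genes were higher in the same nuclei: 13 of 20 tested rose and 0 fell, with a median log2 fold change of 2.25 beside -0.03 over all genes. Btg2, an antiproliferative factor, rose by 3.95 ± 0.22, the nuclear receptor Nr4a3 by 3.32 ± 0.16 and the zinc finger gene Egr4 by 3.23 ± 0.28 (log2). Per1, a clock gene that CREB induces, rose by 2.60 ± 0.20 and Nr4a2 by 2.29 ± 0.15. Sik1 (2.76), Gadd45b (2.40), Dusp6 (2.24), Fosl2 (2.18), Gadd45g (2.07), Dusp1 (1.95), Dusp5 (1.91) and Egr2 (3.19) rose too, Egr2 and Sik1 on a few UMIs per library. Egr2 and Sik1 had enough counts for a test in the nuclei with 2 or more alone. Gadd45b and Dusp1 would not have entered on the nuclei with none alone. The entry of these genes therefore favoured a rise, and they are among the 13. Within cluster 5 alone, a comparison added after seeing the data, 10 of 12 tested on this list rose, as did 369 of 8137 genes tested. Dusp1 did not pass there (1.48, adjusted p = 0.21 by edgeR), and Egr2 and Sik1 were too low to test. Later activity-regulated genes rose in 7 of 14 tests and fell in 0. Bdnf, the neurotrophin, was at 104 ± 63.6 CPM against 17.2 ± 5.09 (2.63 ± 0.15), the prohormone convertase Pcsk1 rose by 2.81 ± 0.22 and the pentraxin Nptx2 by 1.94 ± 0.20. Scg2 (1.56), Vgf (0.75), Sorcs3 (0.67) and Plk2 (0.64) rose as well, and within cluster 5 Vgf did not pass (0.64, adjusted p = 0.274).

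Of the upstream genes 2 of 28 rose, Crem (1.02 ± 0.20), itself an inducible CREB family gene, and Elk4 (0.59 ± 0.18), and 3 fell, Crtc3 (-0.57), Camk4 (-0.36) and Cacna1c (-0.23). None of these 3 passed with DESeq2, with no block for the library, with at least 3 of the 7 genes or without Kat6a-cKO replicate 1, nor did Elk4, and each kept its direction. Over all genes 133 were called lower, against 15 with DESeq2 and 14 with no block. Within cluster 5, Egr1 (2.28) and Homer1 (1.60) passed, and 3 upstream genes rose and 0 fell. Of 8137 genes tested there, 369 were called higher and 38 lower. Crtc3 (-0.70, adjusted p = 0.145), Camk4 (-0.24, adjusted p = 0.501), Cacna1c (-0.02, adjusted p = 0.966) and Elk4 (0.67, adjusted p = 0.139) did not pass there. Actb was the 1 of 30 cytoplasmic and mitochondrial messages that rose (0.32 ± 0.10), and it did not pass within cluster 5 (0.19, adjusted p = 0.584). On no list, the highest were 1700016P03Rik (2.99 ± 0.19), Tiparp (2.58), Rgs4 (2.44), Slc15a2 (2.28), Mlip (2.24), Zfp516 (2.22), Nfil3 (2.14), Errfi1 (2.05), Kitl (1.91) and Zdbf2 (1.83). The lowest were Gm31698 (-1.27), Tiam2 (-1.27), Adamts2 (-1.23), Heatr5a (-1.07) and Ppp1cc (-1.04). Within cluster 5, 1700016P03Rik (2.42), Tiparp (2.60), Rgs4 (2.34), Slc15a2 (2.53), Mlip (2.03), Zfp516 (2.36), Nfil3 (2.35), Errfi1 (1.91) and Zdbf2 (1.50) passed. None of the 4 lowest that were tested there did, Tiam2 (-0.75, adjusted p = 0.573), Adamts2 (-1.41, adjusted p = 0.076), Heatr5a (-1.30, adjusted p = 0.127) and Ppp1cc (-0.79, adjusted p = 0.453). Kitl and Gm31698 were too low to test within it. In CA3 and dentate granule nuclei, fewer than 20 nuclei with 2 or more were found in at least 1 library, and the comparison was not made.

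**Figure D4:**
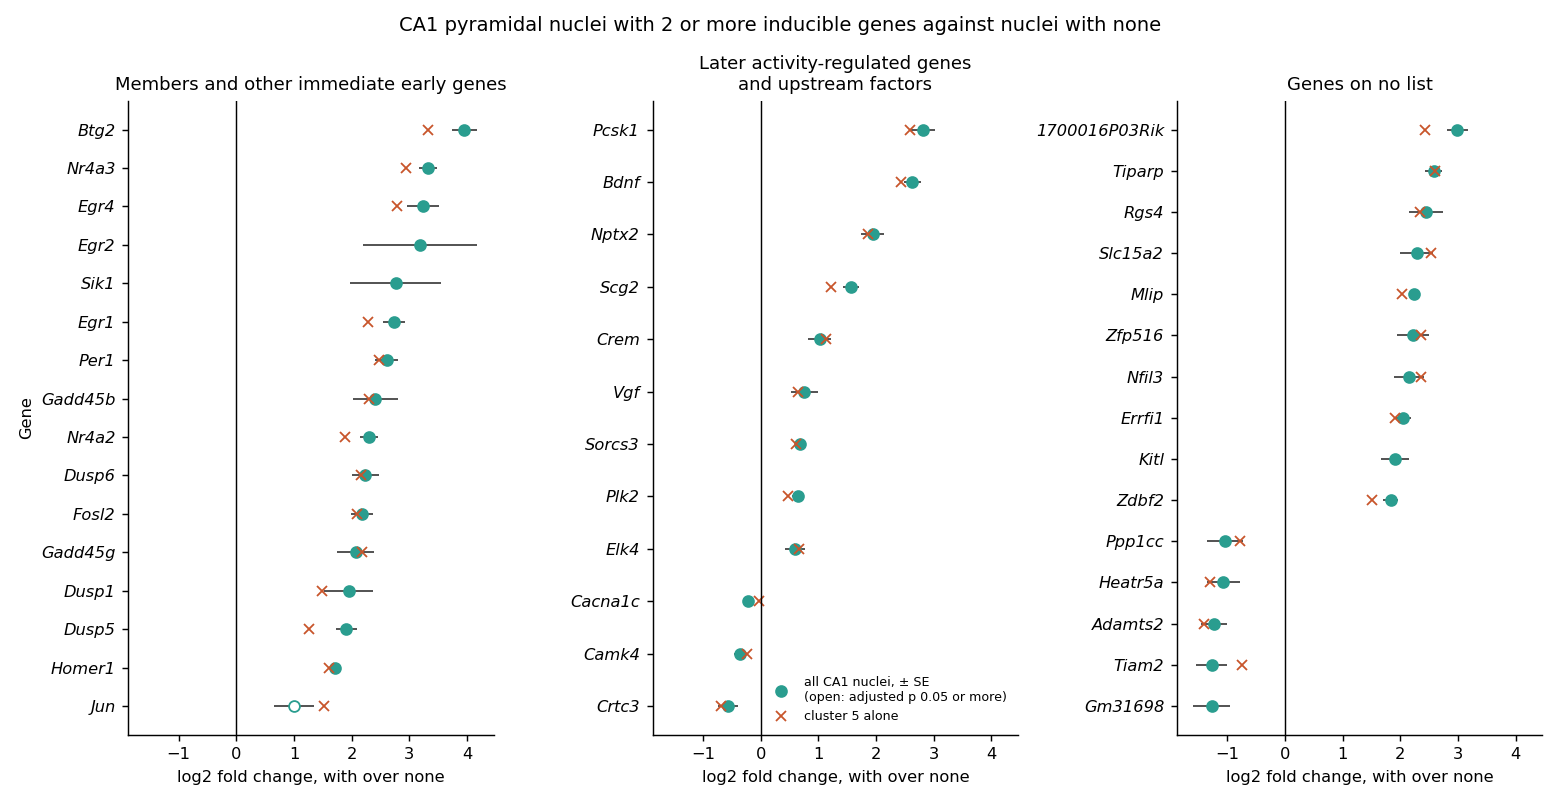
Log2 fold change (± 1 SE, edgeR) between CA1 nuclei with UMIs of 2 or more of 7 inducible genes and nuclei with none, for Egr1, Homer1, Jun, the other immediate early, later and upstream genes past the threshold and the genes on no list; crosses give cluster 5 alone and an open point an adjusted p of 0.05 or more. Egr1 is at 2.73 and Homer1 at 1.71, between other immediate early genes at up to 3.95 and upstream genes at -0.57 to 1.02.

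A small cluster with 4 of 9 dentate granule markers raised held high levels of several of these genes. Cluster 33, which the marker rule left unnamed, had 12 and 23 nuclei from the Control libraries and 12 and 14 from Kat6a-cKO. The choice of this cluster followed a look at its values, so its levels are given with no test. At 5000 UMIs per nucleus, Arc was at 88.0 ± 47.9 CPM in cluster 33 and at 1.27 ± 0.209 CPM in dentate granule nuclei (SD, n = 4 libraries). Homer1 was at 1159 CPM against 123, Egr3 at 83.2 against 13.3, Nr4a1 at 31.3 against 1.90 and Jun at 61.3 against 29.4 CPM. Nr4a1 had UMIs in 3 of its 4 libraries, Npas4, Egr1, Junb and Fosb in 2 and Fos in 1. Of 20 later activity-regulated genes, 18 had a higher mean in cluster 33 than in dentate granule nuclei, 14 of them in 4 of 4 libraries, and 2 had no UMI in it. Of 26 other immediate early genes, 16 had a higher mean, 7 of them in 4 of 4 libraries, and 10 had no UMI in the thinned nuclei of the cluster, among them the 9 with a lower mean. Tll1, Baz1a and Blnk on the list of later genes are among the 10 leading genes of the cluster itself, and Baz1a was used to pick it. The share of all genes higher in cluster 33 was not computed, so these counts cannot be read as a trait of the lists. Examples were Sorcs3 at 3488 CPM against 87.4, Tll1 at 730 against 8.14, Bdnf at 409 against 54.8, Baz1a at 169 against 2.14, Nptx2 at 108 against 2.28 and Pcsk1 at 107 against 2.26. Of the dentate granule markers, Prox1 was at 430 CPM against 231, Dock10 at 478 against 884 and Stxbp6 at 651 against 932. The 61 nuclei fell in both groups and are too few for a comparison between genotypes.

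**Figure D5:**
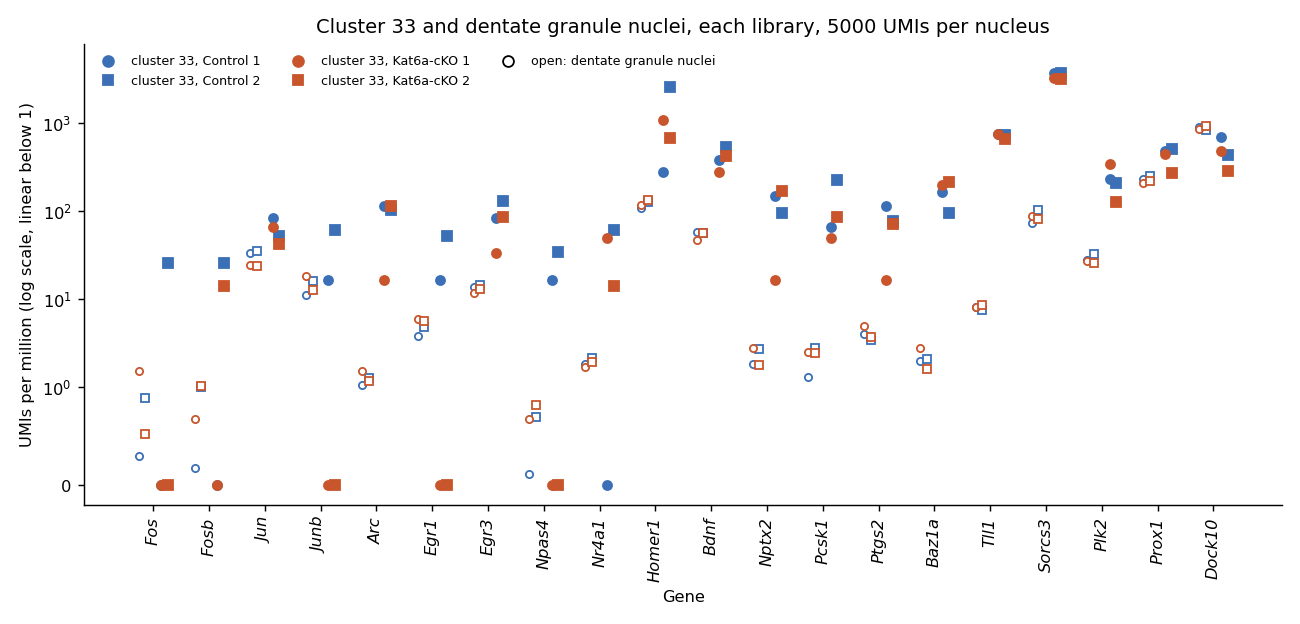
CPM (log axis, linear below 1) in the 61 nuclei of cluster 33 (filled) and in dentate granule nuclei (open), for the 10 genes and related genes, with 1 point per library. Arc is at a mean of 88.0 CPM in cluster 33 and 1.27 CPM in dentate granule nuclei.

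The genes whose level followed each of the 10 most closely over the 12 classes were found by Pearson's r of mean log2(CPM + 1), among 13562 genes, as a description. For Arc they were Cfap45 (r = 0.923) and Wnt2 (0.912), for Npas4 Dram1 (0.929) and Slc4a8, and for Homer1 Pde1a (0.945) and Dram1 (0.941). Nr4a1 was followed by Gm48755 (0.944) and Gm48727, Jun by Napa (0.962) and Atp6v0e2 (0.958), and Junb by A630023P12Rik (0.917) and R3hdm1. Egr3 was followed by Mark2 (0.910) and Angel2, Fosb by Skil (0.872) and A630023P12Rik, Fos by Colec12 (0.80) and Usp46 (0.782), and Egr1 by Dennd4a (0.753) and 9130024F11Rik. The 12 points share libraries, depth per class and free RNA.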

How the data were processed

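The deposited matrices hold raw UMI counts per barcode and gene, and per the labels' protocols they come from 10x Chromium libraries of nuclei; the submitters' processing notes name mm10 and Seurat 4.0.1, while aligner, annotation and counting strand are not given in the sources used here. The 10 genes and the lists were chosen with earlier results of these data known. Barcodes with at least 5000 UMIs were kept, doublets were removed with Scrublet within scanpy 1.11.5, and nuclei were clustered (2000 variable genes without the members and lists, 30 components, Leiden resolution 1). A cluster was named when at least 50% and at least 3 markers of a class were raised 2-fold, it held at least 20 nuclei, its 10 leading genes held at least as many markers of that class as of any other, and, for glia, its median UMIs were at most 0.5 of the library's. UMIs were summed per library and class and tested with edgeR 4.0.16 (glmQLFit, glmQLFTest, TMM, filterByExpr, Benjamini-Hochberg), with DESeq2 1.42.0 as an alternative. CPM used the class sum. Genes were named by rule: every member, list genes past the threshold, otherwise the 2 of smallest p, and the 10 highest and 5 lowest genes on no list with at least 10 CPM; not every gene the rule covers is reported here. The tests were checked on simulated counts with 200 genes changed 2-fold: 139 of 199 were called in CA3, 150 of 196 in inhibitory neurons, 126 of 195 in CA1, 151 of 198 in dentate granule nuclei and 126 of 198 between nuclei with and without inducible genes. The changed genes were drawn at random from all genes tested, with variance set by the trend over all genes. These shares therefore do not give the chance of calling a 2-fold change in the 10 genes. Alternatives are given in the closing section.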

Additional observations from a re-analysis of the deposited data

Results flagged for a closer look

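Nr4a1 had log2 fold changes of opposite sign, with groups that did not overlap, in a pair of the 9 classes in which it was tested. In dentate granule nuclei its log2 fold change was 0.23, with 1.88 and 2 CPM in Control against 2.18 and 2.35 CPM in Kat6a-cKO, both knockout libraries above both Control libraries. The share of these nuclei with a UMI of Nr4a1 at 5000 UMIs per nucleus ran the other way, at 0.914% and 1.05% in Control against 0.811% and 0.819% in Kat6a-cKO. In deep-layer excitatory neurons its log2 fold change was -0.19, with 31.5 and 31.0 CPM in Control against 26.9 and 26.3 CPM in Kat6a-cKO, both knockout libraries below. In dentate granule nuclei 17.1% of all genes lay wholly above and 21.9% wholly below. These shares were not computed for deep-layer neurons. The difference between the classes was not tested. Neither difference passed the edgeR threshold within its class, and free RNA would give 45.7% to 76.1% of the dentate granule UMIs of Nr4a1.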

How the results depend on the processing

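Of the log2 fold changes of the 10 genes between genotypes, 393 of the values under the alternatives that keep all libraries kept their direction and their side of the threshold, 8 passed it newly, 3 fell back and 10 turned; with 1 library left out the counts were 262, 15, 3 and 48. The small classes and the rarest genes limit these values. The highest class mean was 3.80 CPM for Fos, 2.67 CPM for Fosb and 8.50 CPM for Npas4. Only Egr1 in the Fn1 cluster of the 3 calls held under every alternative that was run. The subtraction of empty-droplet RNA, the joining of unnamed clusters, the comparison within cluster 5 and the share of nuclei with at least 3 of the 7 genes were chosen after seeing the data. The cause of the changes below was not tested.

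Genes called between genotypes, of 2 in CA3, numbered 27 with DESeq2, 295 with no filter on low counts, and 1 with 10% or with empty-droplet free RNA subtracted. Of 2 in CA1 they numbered 120 with DESeq2, 544 with no filter, 7 at Leiden resolution 2 and 1 with 10% subtracted. The 67 of dentate granule nuclei became 226, 586, 103 at resolution 2, 0 with 10% subtracted and 1 with empty-droplet RNA subtracted. Inhibitory neurons went from 0 to 7 with DESeq2, to 1 at a minimum of 2000 UMIs and to 4 with cluster 11 joined. DESeq2 gave 27 where edgeR gave 54 in deep-layer neurons, 3 against 12 in immature dentate neurons, 38 against 58 in mossy cells, 1 against 3 in OPCs, 67 against 125 in the Fn1 cluster and 9 against 6 in CA2. Empty-droplet subtraction gave 1 in astrocytes, 3 in CA2, 8 in deep-layer neurons, 3 in immature dentate neurons and 0 in OPCs. Members called in CA1 were 0, then 2 with DESeq2 and 5 with no filter. In dentate granule nuclei they were 1, then 2 with no filter and 0 with empty-droplet RNA subtracted; with 10% subtracted 4 members were tested, Jun not among them, and 0 were called. In the Fn1 cluster they were 2, then 1 with DESeq2 and 1 with empty-droplet RNA subtracted. With no filter the differences between classes gave 279 of 30693 genes and 2 members for dentate granule against CA1, and 85 of 30121 and 1 member against CA3. They gave 64 of 29818 genes for dentate granule against inhibitory neurons and 18 of 29870 for CA1 against CA3. Nuclei with 2 or more genes against none gave 235 called with at least 3 of the 7, 290 with DESeq2, 1234 unthinned and 407 within cluster 5. The share of nuclei with 2 or more, Kat6a-cKO minus Control, went from 0.734 to -2.89 percentage points in CA3 and from -0.231 to -0.793 in dentate granule nuclei without thinning, and from 0.214 to -1.49 in inhibitory neurons. Of 40 shares of nuclei with a UMI of a single gene, 18 moved by more than 1 SD without thinning and 12 with at least 2 UMIs. For the genes named in the comparison of nuclei with 2 or more against none, 115 values kept their direction and side of the threshold, 26 fell back and 2 passed newly; with 1 library left out 98 kept both and 20 fell back.

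Single genes turned as follows (log2): with 10% free RNA subtracted, Nr4a1 in CA3 came to 0.84 and in inhibitory neurons to 0.13. With empty-droplet RNA subtracted, Jun came to 0.35 in CA1 and 0.56 in inhibitory neurons, and Egr3 to 0.050 in immature dentate neurons. Arc in dentate granule nuclei came to -0.29 at 2000 UMIs and to -0.29 with cluster 33 joined. At 2000 UMIs Junb in inhibitory neurons came to 0.033 and Nr4a1 to 0.0019. Homer1 in deep-layer neurons came to 0.00094 with DESeq2.

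The replicate numbers come from titles alone, and same-numbered libraries deviated together with correlations of 0.0848 in inhibitory neurons, 0.166 in CA1, 0.125 in CA3 and 0.162 in dentate granule nuclei. With 2 pairs this establishes no pairing. A fit with the replicate block gave 57 genes in inhibitory neurons, 1 in CA1, 63 in CA3, 105 in dentate granule nuclei, 7 in astrocytes, 150 in CA2, 14 in deep-layer neurons, 65 in immature dentate neurons, 125 in mossy cells, 1 in OPCs and 348 in the Fn1 cluster. Without the library as a block (no replicate block), nuclei with 2 or more against none gave 271.

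Leaving out each library in turn, with the lone library of a group assumed to vary like the other group, genes called ran from 0 to 82 in inhibitory neurons, 10 to 514 in CA1, 4 to 331 in CA3, 103 to 319 in dentate granule nuclei, 0 to 21 in astrocytes, 22 to 105 in CA2, 57 to 297 in deep-layer neurons, 26 to 175 in immature dentate neurons, 38 to 209 in mossy cells, 2 to 49 in oligodendrocytes, 12 to 24 in OPCs and 72 to 245 in the Fn1 cluster. Members called ran from 0 to 4 in CA1, 1 to 2 in the Fn1 cluster and 0 to 1 in CA3, dentate granule, inhibitory, CA2 and deep-layer nuclei. The differences between classes gave 6 to 193 genes for dentate granule against CA1, 23 to 216 (0 to 1 members) against CA3, 1 to 107 against inhibitory neurons and 0 to 236 for CA1 against CA3. Nuclei with 2 or more against none gave 386 to 575.

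The log2 fold changes that turned with 1 library left out ran as follows. In CA3 they were Fosb -0.43 to 2.24, Jun -0.027 to 0.39, Arc -0.12 to 0.93, Npas4 -0.0086 to 0.68 and Nr4a1 -0.25 to 0.15. In CA1 they were Fosb -0.27 to 1.60, Jun -0.45 to 0.016, Egr3 -0.067 to 0.49 and Homer1 -0.052 to 0.25. Dentate granule nuclei had Junb -0.016 to 0.57 and Arc -0.12 to 0.66, and inhibitory neurons Fos -0.56 to 0.69, Nr4a1 -0.26 to 0.071 and Homer1 -0.020 to 0.14. Astrocytes had Homer1 -0.51 to 0.16. CA2 had Jun -0.32 to 0.16, Egr3 -0.37 to 0.69, Npas4 -0.10 to 1.15 and Homer1 -0.057 to 0.27. Deep-layer neurons had Jun -0.51 to 0.92, Egr3 -0.32 to 0.55, Npas4 -0.016 to 2.12 and Homer1 -0.074 to 0.074. Immature dentate neurons had Junb -0.32 to 0.37 and Egr1 -0.60 to 0.18. Mossy cells had Junb -0.055 to 0.74, Nr4a1 -0.043 to 0.15 and Homer1 -0.011 to 0.45, and OPCs Nr4a1 -0.78 to 0.48 and Homer1 -0.17 to 0.17. The Fn1 cluster had Egr3 -0.084 to 0.57, Npas4 -0.18 to 1.03, Nr4a1 -0.29 to 0.078 and Homer1 -0.18 to 0.041.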

Other observations

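Nuclei of clusters that the marker rule left unnamed, 775 to 1225 per library, were in no main comparison; clusters 11 and 33 among them were joined to a class in 1 alternative. In empty droplets Arc was at 13.8 and 21.3 CPM in Control against 17.7 and 27.0 CPM in Kat6a-cKO, Egr1 at 72.9 and 107 CPM against 75.7 and 113 CPM, Egr3 at 98.6 and 109 CPM against 71.4 and 95 CPM, and Homer1 at 148 and 154 CPM against 168 and 192 CPM.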
